A study of Mus musculus with 6 samples.

Results

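The genes of the circadian clock and its direct outputs were examined in spleen RNA-seq libraries of NOD.B10 females that had clinical disease, the mouse model of primary Sjögren's syndrome, and of BL/10 females, the healthy control strain (n = 3 each). The members were the 10 listed genes Per1, Per2, Per3, Dbp, Nr1d1, Nr1d2, Tef, Arntl, Cry1 and Ciart, found by symbol among the 47729 genes of the count table, and all 10 passed the filter on low counts. NOD.B10 (NOD.B10Sn-H2b/J) is a NOD strain that carries the H2b haplotype, which BL/10 (C57BL10/SnJ) also carries. Neither group received a treatment, and no time of day of tissue collection is given in the sources used here. The comparison served as a check on that time, since these genes follow it.

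Column names and descriptions gave the strain of each library. Titles and strain fields name the other strain for all 6 libraries, so every direction below would turn around under the titles. Ifi202b, a gene known to be silent in C57BL/6 mice, had 838, 624 and 485 counts in the libraries named NOD.B10 by their columns and 2, 0 and 0 in those named BL/10. The labels give an age of 26 weeks for the 3 NOD.B10 libraries and BL/10 replicate 1, and 36 weeks for BL/10 replicates 2 and 3. The ages of these samples were taken from the same records as the descriptions. The paper describes the control mice as matched in age, which conflicts with these labels. Under the titles, the libraries labelled 36 weeks would be NOD.B10. This conflict was not resolved, so every result below with the labelled age as a term depends on the labels being right.

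In mouse cells the clock is a feedback loop. ARNTL (also called BMAL1) and CLOCK bind E-box elements and switch on the Per and Cry genes, whose proteins then block ARNTL and CLOCK. NR1D1 and NR1D2 (REV-ERB proteins) repress Arntl through RRE elements, where ROR proteins activate it, and the PAR bZIP factors DBP, TEF and HLF act on D-box elements, where NFIL3 opposes them. Arntl peaks at roughly the opposite time of day from Dbp and Nr1d1, and spleen cells, including macrophages and lymphocytes, run such clocks. Expression of these genes therefore moves strongly with the hour at which a tissue is taken.

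The elements named above could be seen in several promoters, and the matches near the members' start sites are shown to place each gene in the loop. Windows from 250 bases before to 50 bases after each start site were taken from RefSeq (GRCm38.p6), and 9 of the 10 members (all but Per2) had at least 1 window. Capitals mark the E-box CACGTG, the D-box TTATGTAA or the RRE core TAGGTCA, searched on both strands, and sequences are given in the direction of the gene.
Cry1, E-box, chr10:85185085-85185138 (minus strand): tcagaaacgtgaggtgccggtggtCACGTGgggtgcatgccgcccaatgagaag
Ciart, 3 E-boxes, chr3:95882252-95882368 (minus strand): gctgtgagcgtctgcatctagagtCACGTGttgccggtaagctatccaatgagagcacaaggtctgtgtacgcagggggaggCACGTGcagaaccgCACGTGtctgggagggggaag
Per1, E-box, chr11:69098773-69098802 (plus strand): cacccaagtcCACGTGcagggatgtgtgtg
Tef, E-box of the first start site, chr15:81802536-81802565 (plus strand): gctgtggctcCACGTGctgcagctggcaca
Tef, E-box of a downstream start site, chr15:81811266-81811295 (plus strand): cctggcccagCACGTGtctacatcgtttgg
Per3, 2 D-boxes, chr4:151044792-151044894 (minus strand): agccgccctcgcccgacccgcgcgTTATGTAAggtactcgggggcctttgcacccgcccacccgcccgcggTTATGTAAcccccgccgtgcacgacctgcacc
Arntl, RRE core, chr7:113207529-113207558 (plus strand): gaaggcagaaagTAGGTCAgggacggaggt

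Of all 27025 genes with such windows, 8.09% held CACGTG, 1.11% held TTATGTAA and 2.97% held TAGGTCA. No match of these letters was found in the windows of Dbp, Nr1d1 and Nr1d2, which says nothing of elements elsewhere in these genes. A match is a description of the sequence and not evidence of binding.

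The libraries held between 15662712 and 18298451 counted reads, and a floor of 3 counts was 0.163 to 0.201 CPM (counts per 1000000 counted reads after TMM scaling), which covers counting error only. As a check of tissue, the B cell gene Ms4a1 had 799 to 1748 CPM and the red pulp macrophage gene Spic 146 to 296 CPM. The lists of other cell types were fixed at 10 genes each. In edgeR, 8 T cell markers were higher and 9 neutrophil markers lower in NOD.B10, with summed levels of 796 to 1053 against 392 to 510 CPM and of 2151 to 2476 against 6090 to 12742 CPM. Fitted values went the other way for Cd8b1 among T cell markers (log2 fold change -0.40) and Cxcr2 among neutrophil markers (0.58). Both missed the threshold (adjusted p = 0.190 and 0.106 in edgeR). S100a8 and S100a9 gave 3352 and 5633 of the 12742 CPM in BL/10 replicate 2. Of 10 pancreas acinar markers 8 were tested, and all 8 were lower in NOD.B10. These 8 passed the filter on low counts only through their BL/10 counts, so their shared direction is no test of the list. The 10 genes summed to 2.75 to 3.65 CPM there, with Cela2a and Cela3b at or under the floor in some libraries, against 10014, 1526 and 33.2 CPM in BL/10 replicates 1, 2 and 3. Among macrophage markers 2 were higher and 1 lower, 3 stromal and endothelial markers were higher and 1 erythroid marker (Hba-a2) was lower. Over all genes tested, 17.3% were called by edgeR, 9.11% as higher and 8.22% as lower in NOD.B10. No B cell or adipocyte marker was called by edgeR, with 1 and 0 at an unadjusted p under 0.05 and 1 and 0 called by DESeq2. Whether fewer cells of a type or less RNA per cell lies behind such a difference cannot be told apart in bulk tissue. BL/10 replicate 3 had the highest adipocyte sum (206 CPM, against 31.99 to 56.1 CPM in the other libraries), and erythroid sums ran from 27010 CPM in NOD.B10 replicate 3 to 67640 CPM in BL/10 replicate 3.

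Cry1 was the only member called different between the strains. It was 1.38-fold higher in NOD.B10 by edgeR's quasi-likelihood test, adjusted over the 15330 genes tested, at a threshold of 0.05. Of these genes, 17.3% were called in either direction, 9.11% as higher and 8.22% as lower in NOD.B10, so 1 of 10 members is close to what was seen over all genes. The remaining 9 members missed the threshold, although Dbp and Nr1d1 had fitted differences larger than that of Cry1. In all, 7 members had a fitted value higher and 3 a fitted value lower in NOD.B10, and the median log2 fold change was 0.21 against 0.00060 over all genes tested. Libraries of the strains did not overlap for 2 members (Cry1 and Nr1d1), where 38.0% of the tested genes did not overlap.

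**Figure D1:**
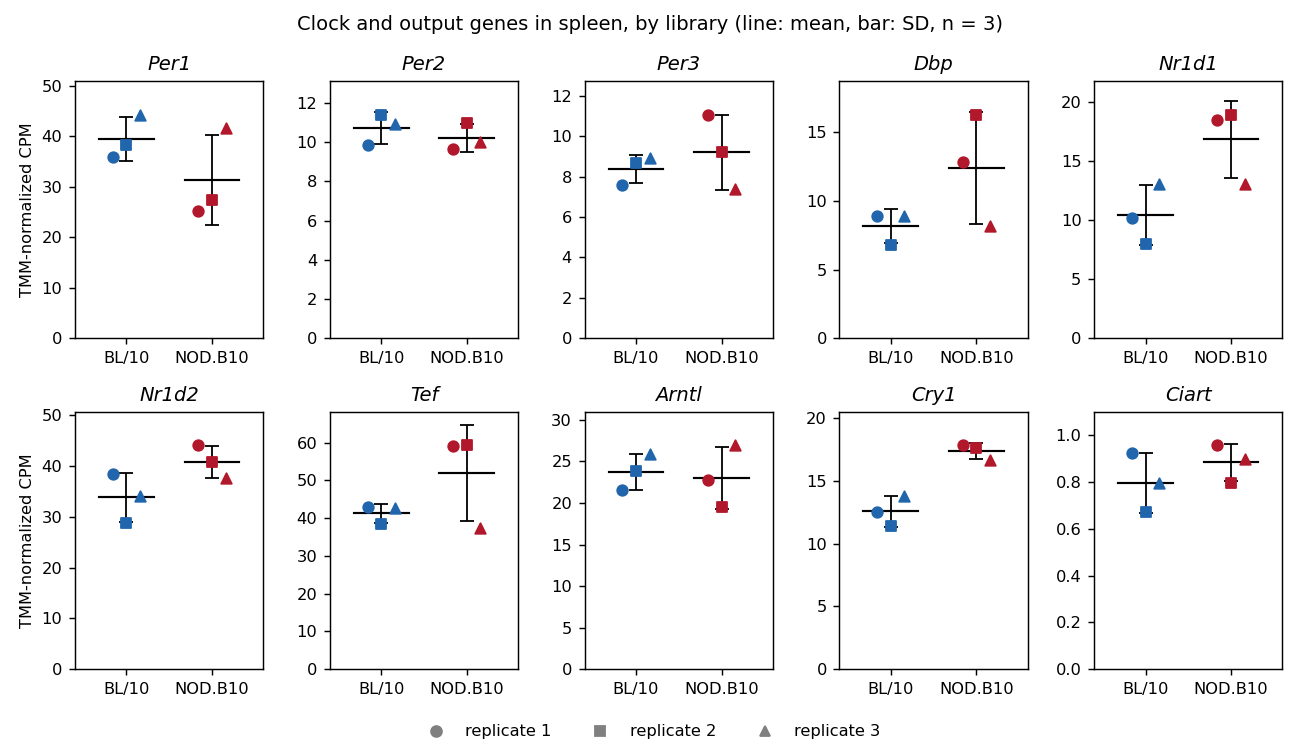
Normalized level (CPM, vertical axis) of each of the 10 clock and output genes in the 3 BL/10 (blue) and 3 NOD.B10 (red) libraries, with marker shapes for replicates, a line for the mean and a bar for the SD. Cry1 is the gene whose strains are clearly separate, and NOD.B10 replicate 3 (triangle) lies away from the other NOD.B10 libraries for Per1, Dbp, Nr1d1 and Tef.

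The clock repressors were considered first. Cry1 (ENSMUSG00000020038, chromosome 10 from 85131702 to 85185054 of GRCm38) encodes a cryptochrome that blocks ARNTL and CLOCK. It had 17.8, 17.6 and 16.6 CPM in NOD.B10 replicates 1, 2 and 3 and 12.5, 11.4 and 13.8 CPM in BL/10. All NOD.B10 libraries thus lay above all BL/10 libraries. The log2 fold change was 0.46 (standard error 0.11, 95% interval 0.21 to 0.72, adjusted p = 0.0271 from edgeR). The T cell sums were also higher and the neutrophil sums lower in all NOD.B10 libraries, and their part in the Cry1 difference was not tested. The call was lost without NOD.B10 replicate 1, 2 or 3 or BL/10 replicate 2 (adjusted p = 0.103, 0.0698, 0.0646 and 0.0862 in edgeR), and with the labelled age as a term (adjusted p = 0.175), while the log2 fold change stayed between 0.40 and 0.53 under every alternative tried.

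Per1 (ENSMUSG00000020893, chromosome 11 from 69095217 to 69109960) encodes a period protein and is also induced quickly by glucocorticoids. It had 25.2, 27.3 and 41.6 CPM in NOD.B10 and 35.8, 38.2 and 44.3 CPM in BL/10. Replicates 1 and 2 of NOD.B10 were below all BL/10 libraries, and replicate 3 was among them. The log2 fold change was -0.33 (standard error 0.19, 95% interval -0.77 to 0.12, adjusted p = 0.265 from edgeR). Without NOD.B10 replicate 3 the log2 fold change was -0.58 and passed the threshold (adjusted p = 0.0447), while it was -0.19 both without NOD.B10 replicate 1 and with the labelled age as a term (adjusted p = 0.578 and 0.763).

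Per2, the partner of Per1 in the repressor complex, showed the smallest spread of the 3 Per genes. It had 9.63, 10.99 and 10.0 CPM in NOD.B10 and 9.83, 11.4 and 10.9 CPM in BL/10, so the groups overlapped throughout. Its log2 fold change of -0.07 had a 95% interval from -0.35 to 0.21 (adjusted p = 0.723 from edgeR), and it lay between -0.14 and -0.025 when each library was left out. Per3, which strengthens the rhythm but is not required for it, had 11.1, 9.21 and 7.36 CPM in NOD.B10 and 7.60, 8.65 and 8.92 CPM in BL/10. NOD.B10 held both the highest and the lowest Per3 value, and the log2 fold change was 0.13 (95% interval -0.27 to 0.53, adjusted p = 0.621 from edgeR), with values from -0.018 without NOD.B10 replicate 1 to 0.27 without NOD.B10 replicate 3.

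Ciart (also called CHRONO), a further repressor of ARNTL and CLOCK and the member with 3 E-boxes near its start site, had few reads. The NOD.B10 libraries gave 16, 13 and 16 reads and the BL/10 libraries 17, 10 and 14, or 0.671 to 0.957 CPM over all libraries. The strains overlapped, and the 95% interval of the log2 fold change of Ciart ran from -0.44 to 0.72 (fitted value 0.14, adjusted p = 0.779 from edgeR).

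The REV-ERB genes, whose proteins repress Arntl, had fitted values higher in NOD.B10. Nr1d1 (ENSMUSG00000020889, chromosome 11 from 98767932 to 98775333) had 18.5, 18.9 and 13.0 CPM in NOD.B10 and 10.2, 7.98 and 13.0 CPM in BL/10. The groups were apart only by the distance between NOD.B10 replicate 3 and BL/10 replicate 3, at 13.036 and 13.013 CPM. With a log2 fold change of 0.69 (standard error 0.21, 95% interval 0.20 to 1.18), Nr1d1 had the largest difference of the members and lay just outside the threshold (adjusted p = 0.0623 from edgeR). It was called by DESeq2 (adjusted p = 0.0237, where 21.7% of all genes were called), by limma-voom with quality weights (adjusted p = 0.0481) and in edgeR with no filter beyond 1 count (adjusted p = 0.0372). Under the other edgeR alternatives Nr1d1 stayed above the threshold, with an adjusted p of 0.281 with the age term and of 0.0523 to 0.187 in edgeR when each library was left out (highest without NOD.B10 replicate 1). Of its exon bases, 8.55% lie in exons of Thra on the opposite strand, and reads there could not be assigned. Its relative Nr1d2 had 44.1, 40.8 and 37.6 CPM in NOD.B10 and 38.5, 28.8 and 34.2 CPM in BL/10. These values overlapped, with a log2 fold change of 0.27 (95% interval -0.02 to 0.56, adjusted p = 0.166 from edgeR). For Nr1d2 the log2 fold change was 0.17 without BL/10 replicate 2 and 0.084 with the age term (adjusted p = 0.390 and 0.811).

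Dbp (ENSMUSG00000059824, chromosome 7 from 45705247 to 45710203), the output factor with the widest daily swing in many tissues, had 12.8, 16.3 and 8.15 CPM in NOD.B10 and 8.91, 6.77 and 8.86 CPM in BL/10. Replicates 1 and 2 of NOD.B10 were above every BL/10 library, and replicate 3 was below BL/10 replicates 1 and 3. The log2 fold change was 0.59 (standard error 0.25, 95% interval 0.01 to 1.18, adjusted p = 0.139 from edgeR). Without NOD.B10 replicate 3 it was 0.83 and passed the threshold (adjusted p = 0.0458), and without NOD.B10 replicate 2 it was 0.35 (adjusted p = 0.344). Exons of Sphk2 on the opposite strand cover 32.1% of the exon bases of Dbp, so its count comes from the rest of the gene.

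Tef (ENSMUSG00000022389, chromosome 15 from 81802421 to 81826861), a further PAR bZIP output factor, had 59.2, 59.3 and 37.3 CPM in NOD.B10 and 42.9, 38.4 and 42.7 CPM in BL/10. NOD.B10 replicate 3 had the lowest Tef level of all 6 libraries, while the other NOD.B10 libraries were the highest. The log2 fold change was 0.33 (standard error 0.18, 95% interval -0.08 to 0.74, adjusted p = 0.227 from edgeR), and 0.52 without NOD.B10 replicate 3 (adjusted p = 0.0254). It was 0.22 both without NOD.B10 replicate 1 and without NOD.B10 replicate 2 (adjusted p = 0.511 and 0.468 in edgeR). With the labelled age as a term it was 0.28.

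Arntl (ENSMUSG00000055116, chromosome 7 from 113207465 to 113314122), the activating arm of the loop, had 22.8, 19.5 and 26.9 CPM in NOD.B10 and 21.6, 23.8 and 25.9 CPM in BL/10. NOD.B10 held both the lowest and the highest value. The log2 fold change of -0.04 had a 95% interval from -0.36 to 0.28 (adjusted p = 0.861 from edgeR), and its sign changed with the age term and without NOD.B10 replicate 2 or BL/10 replicate 3 (log2 fold changes of 0.098, 0.068 and 0.018).

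**Figure D2:**
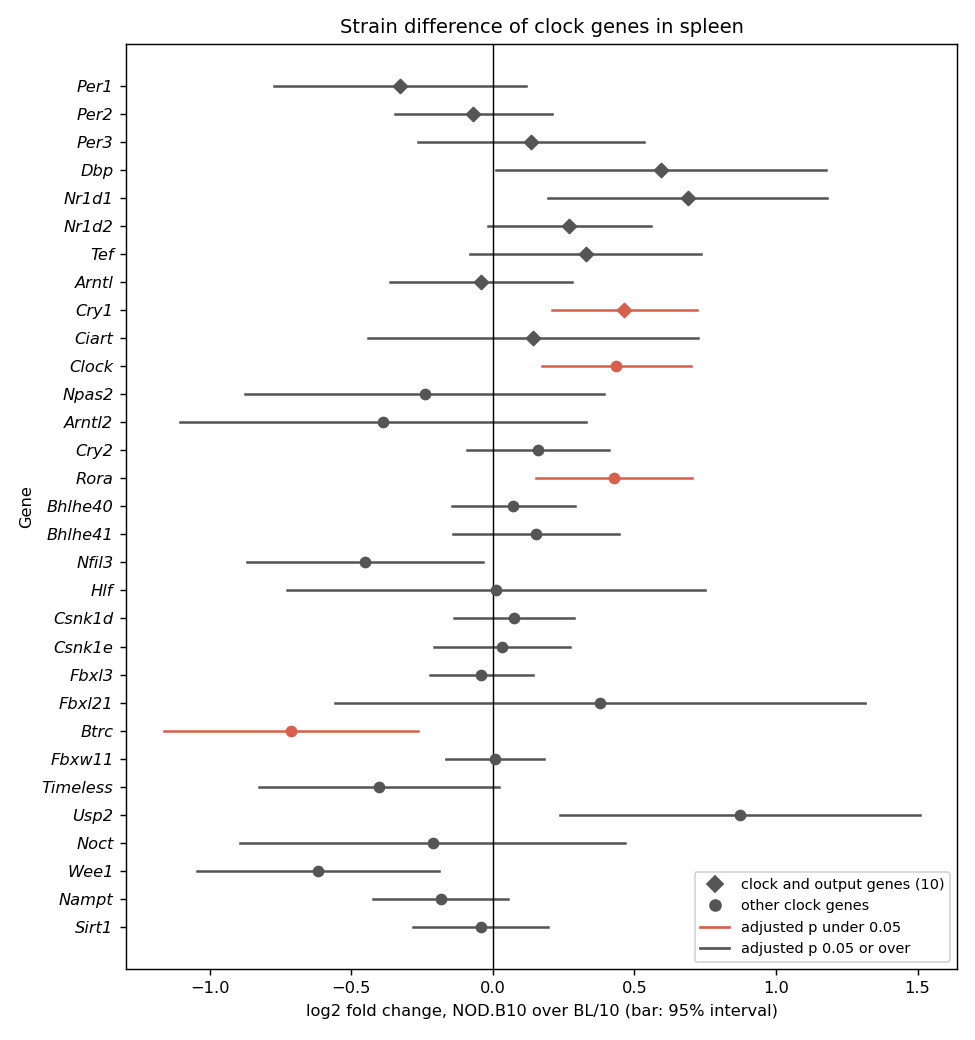
Log2 fold change of NOD.B10 over BL/10 (horizontal axis) with its 95% interval for the 10 clock and output genes (diamonds) and the other clock genes reported here (circles), from edgeR. Red marks an adjusted p under 0.05, reached by Cry1, Clock and Rora above 0 and by Btrc below 0.

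Levels of different members were compared per length, as RPKM (the CPM divided by the length in kilobases of the exon bases that no other gene shares, since reads elsewhere were not assigned). In NOD.B10 the mean levels were 10.9 for Dbp, 8.17 for Nr1d2, 7.94 for Arntl, 6.77 for Tef, 5.97 for Nr1d1, 5.76 for Cry1 and 5.58 RPKM for Per1, and the libraries of each pair of neighbors in this order overlapped. In BL/10 the order was Arntl (8.18), Dbp (7.18), Per1 (7.01), Nr1d2 (6.76), Tef (5.39), Cry1 (4.17) and Nr1d1 (3.70 RPKM), where Nr1d2 did not overlap with Tef, nor Tef with Cry1. Per2, Per3 and Ciart were lower and separate from each other in both strains, at 1.74, 0.959 and 0.391 RPKM in NOD.B10 and 1.83, 0.873 and 0.352 RPKM in BL/10. The order of the upper members depends on the length used, since over all exon bases Dbp had 7.39 and 4.88 RPKM in NOD.B10 and BL/10, behind Nr1d2 and Arntl in both strains.

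Members of the loop moved between libraries of the same strain as well. On the log2 CPM scale, the median SD between replicates was 0.26 for the members against 0.14 for all genes tested in NOD.B10, and 0.15 against 0.18 in BL/10. Pooled over both strains, the SD of Dbp (0.39) was above that of 85.8% of tested genes, and those of Nr1d1 (0.32), Per1 (0.29) and Tef (0.28) were above 79.2%, 75.4% and 72.9%. Per2 and Cry1 were at the quiet end, each with an SD of 0.10 (above 21.8% and 22.2% of genes). For Dbp, Tef and Per1 the SD was larger in NOD.B10, and for Nr1d1 it was larger in BL/10 (0.35 against 0.30).

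Without NOD.B10 replicate 3 the median pooled SD of the members was 0.14, against 0.21 with it. Against the mean of the 6 libraries, Dbp was higher by 0.37 and 0.72 on the log2 scale in NOD.B10 replicates 1 and 2 and was at -0.27 in replicate 3. Tef (0.37, 0.37 and -0.29) and Hlf (0.34, 0.35 and -0.79), the other PAR bZIP genes, had the same order of signs. For Per1 the signs were the opposite, at -0.46, -0.34 and 0.26. Arntl stood at -0.03, -0.26 and 0.21. Replicate 3 of NOD.B10 also had, within that strain, the lowest erythroid sum (27010 against 41420 and 48412 CPM) and the highest sums of T cell (1053 CPM) and B cell markers (5201 CPM), and the part of these in the clock values was not tested.

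**Figure D3:**
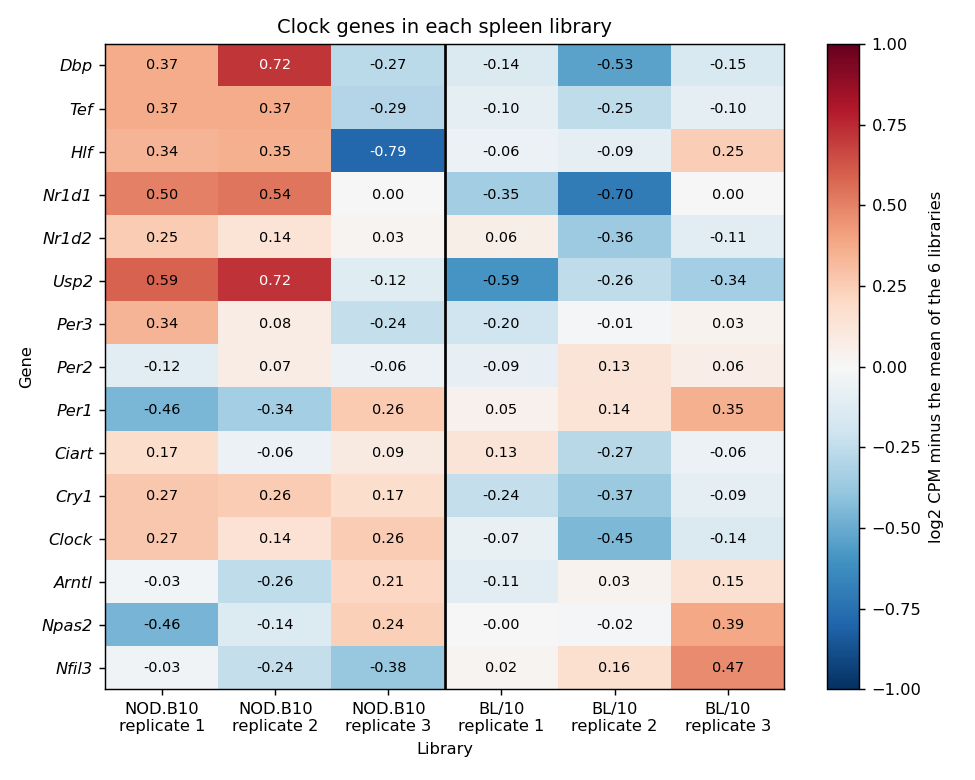
Log2 CPM of 15 clock genes (rows) in each library (columns) minus the gene's mean over the 6 libraries, written in each cell and colored from blue (below the mean) to red (above). Dbp, Tef and Hlf are red in NOD.B10 replicates 1 and 2 and blue in NOD.B10 replicate 3, while Cry1 and Clock are red in all 3 NOD.B10 libraries and blue in all 3 BL/10 libraries.

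The ratio of Dbp to Arntl in a library compares genes of opposite daily phase without any library scaling. Per length of all exon bases, a factor that is the same in every library, it was 0.972, 1.45 and 0.524 in NOD.B10 and 0.715, 0.492 and 0.593 in the BL/10 libraries. The ratio of NOD.B10 replicate 3 lay within the range of BL/10, and the other NOD.B10 libraries were above it. The mean log2 ratios were -0.15 ± 0.74 and -0.75 ± 0.27 (SD, n = 3 each), a difference of 0.61 with p = 0.3 in a two-sided exact permutation test, where 3 libraries against 3 cannot give less than 0.1. The difference was 0.27 without NOD.B10 replicate 2 and 1.00 without NOD.B10 replicate 3. The other ratios gave the same sign, with differences of 0.82 for Dbp to Npas2 (exact p = 0.3) and 0.75 for Nr1d1 to Arntl (exact p = 0.2), and all 3 exact permutation tests had an adjusted p of 0.3. No difference between the strains was shown for any of the 3 ratios.

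Other genes of the clock pathway were compared next. Of 22 genes listed, all were tested, and 2 were higher and 1 was lower in NOD.B10 (9.11% and 8.22% of all genes tested). Libraries of the strains did not overlap for 7 of the 22, where 38.0% of the tested genes did not overlap. Clock, the partner of Arntl on E-boxes, had 63.5, 58.3 and 63.0 CPM in NOD.B10 and 50.1, 38.6 and 47.7 CPM in BL/10, with no overlap (log2 fold change 0.44 with a standard error of 0.11, and an adjusted p of 0.0359 in edgeR). Rora, a ROR activator of Arntl that is also used by T cells and innate lymphoid cells, had 21.7, 18.2 and 21.0 CPM in NOD.B10 and 16.7, 13.8 and 14.8 CPM in BL/10 (log2 fold change 0.43 with a standard error of 0.12, and an adjusted p of 0.0454 in edgeR). The Rora call was lost with upper-quartile normalization (adjusted p = 0.0507), with no filter beyond 1 count (0.0518) and with at least 10 counts in every library (0.0578). Rora and Clock were higher in the strain with the higher T cell sums (at least 796 against at most 510 CPM), and the part of T cells in these values was not tested.

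Btrc, which encodes a ubiquitin ligase subunit that marks PER proteins for degradation, was lower in NOD.B10. It had 44.9, 53.1 and 38.7 CPM there and 54.4, 86.6 and 83.4 CPM in BL/10, with no overlap (log2 fold change -0.71 with a standard error of 0.19, and an adjusted p of 0.0415 in edgeR). Its BL/10 values followed the neutrophil sums of 6090, 12742 and 11166 CPM, whose part was not tested, and with the labelled age as a term its log2 fold change was -0.26 (adjusted p = 0.479). The same term gave 0.30 for Clock and 0.28 for Rora (adjusted p = 0.329 and 0.393). All 3 calls were lost without NOD.B10 replicate 1 (adjusted p = 0.126, 0.158 and 0.132 for Clock, Rora and Btrc in edgeR), without BL/10 replicate 2 (0.0634, 0.119 and 0.135) and without BL/10 replicate 3 (0.0774, 0.112 and 0.118). Without NOD.B10 replicate 3 Clock, Rora and Btrc were also lost (adjusted p = 0.111, 0.121 and 0.153), and without NOD.B10 replicate 2 Clock was (0.0606).

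The named genes that missed the threshold spanned both directions. Cry2, the second cryptochrome, had 13.8 ± 1.05 CPM in NOD.B10 and 12.3 ± 0.445 CPM in BL/10 (SD, n = 3), and Npas2, which can stand in for Clock, had 1.27 ± 0.338 and 1.51 ± 0.271 CPM. Bhlhe40 and Bhlhe41, repressors that compete for E-boxes, had log2 fold changes of 0.07 and 0.15 (adjusted p = 0.624 and 0.428 in edgeR). Nfil3, the repressor at D-boxes, had 5.68, 4.91 and 4.44 CPM in NOD.B10 and 5.92, 6.50 and 8.13 CPM in BL/10. Its libraries did not overlap, in the direction opposite to that of Dbp (log2 fold change -0.45, adjusted p = 0.121 from edgeR). Hlf had a log2 fold change of 0.01 with a 95% interval from -0.73 to 0.75.

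Glucocorticoids have a daily rhythm of their own and act on Per1, so a list of 10 glucocorticoid-responsive genes was compared. Fkbp5, which encodes a chaperone of the glucocorticoid receptor, was the gene called, 1 of 10 where 17.3% of all genes were called and 9.11% as higher. It had 82.4, 84.6 and 89.9 CPM in NOD.B10 and 49.5, 50.8 and 66.5 CPM in BL/10, a 1.54-fold difference (log2 fold change 0.62 with a standard error of 0.13, and an adjusted p of 0.0146 in edgeR). Its adjusted p was 0.0503, 0.0654 and 0.0569 without NOD.B10 replicate 1, NOD.B10 replicate 3 or BL/10 replicate 2. With the labelled age as a term, the log2 fold change of Fkbp5 was 0.79. Of the 10 fitted values 4 were higher and 6 lower in NOD.B10, and the median of these log2 values was -0.02.

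Several of these genes separated libraries rather than strains. Tsc22d3 (GILZ), a classic glucocorticoid target, had 140, 135 and 267 CPM in NOD.B10 and 315, 159 and 172 CPM in BL/10. Ddit4, a stress-responsive inhibitor of mTORC1, had 96.2, 86.5 and 175 CPM in NOD.B10 and 183, 123 and 113 CPM in BL/10. Both were highest in BL/10 replicate 1 and NOD.B10 replicate 3, the libraries with the lowest erythroid sums (29745 and 27010 CPM). The same libraries had the highest sums of B cell markers (5306 and 5201 CPM). Metallothionein Mt1 had 48.1, 52.5 and 25.7 CPM in NOD.B10 and 42.0 to 43.8 CPM in BL/10, so it set NOD.B10 replicate 3 apart as the lowest. Mt2 was also lowest there (17.1 CPM, against 32.6 to 48.1 CPM in the other libraries). The part of erythroid cells or B cells in these values was not tested.

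**Figure D4:**
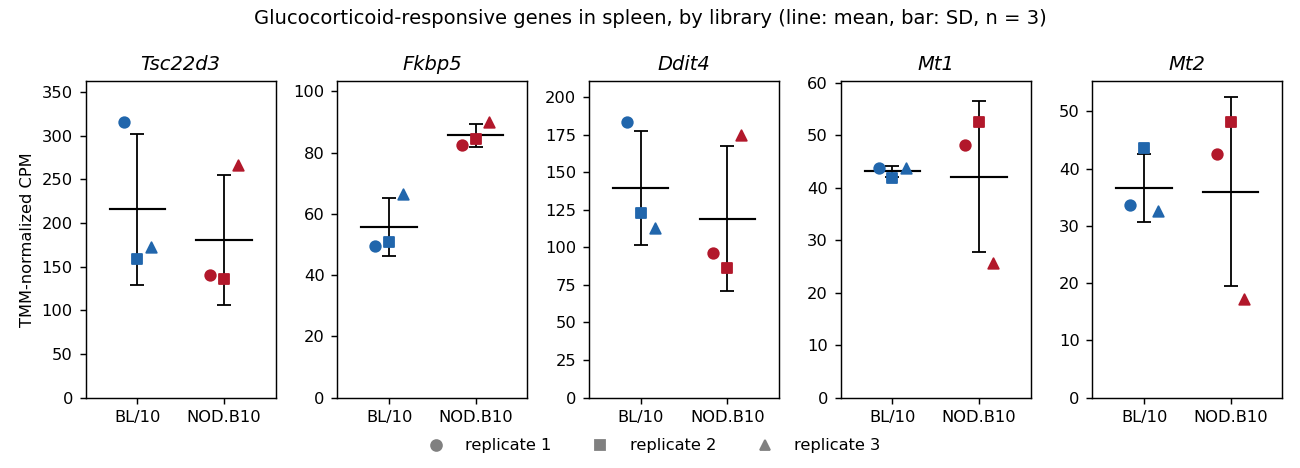
Normalized level (CPM, vertical axis) of 5 glucocorticoid-responsive genes in the 3 BL/10 (blue) and 3 NOD.B10 (red) libraries, with marker shapes for replicates, a line for the mean and a bar for the SD. Tsc22d3 and Ddit4 are highest in BL/10 replicate 1 and NOD.B10 replicate 3, Mt1 and Mt2 are lowest in NOD.B10 replicate 3, and Fkbp5 is higher in all NOD.B10 libraries.

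Body temperature also cycles with the day, and heat shock genes rise and the cold-inducible genes Cirbp and Rbm3 fall when it is high. Of 10 such genes, 2 were lower and none higher in NOD.B10 by edgeR, with 4 at an unadjusted p under 0.05 and 2 called by DESeq2. Over all genes tested, 8.22% were called lower, 34.2% had an unadjusted p under 0.05 and DESeq2 called 21.7%. Hspa8, a constitutive chaperone, had 468, 490 and 598 CPM in NOD.B10 and 701, 761 and 836 CPM in BL/10 (log2 fold change -0.56 with a standard error of 0.13, and an adjusted p of 0.0268 in edgeR). Hspd1, the mitochondrial chaperonin, had 108, 134 and 131 CPM and 159, 196 and 162 CPM (log2 fold change -0.47 with a standard error of 0.13, and an adjusted p of 0.0414 in edgeR). Neither gene overlapped between the strains. Both calls were lost without NOD.B10 replicate 1 (adjusted p = 0.126 and 0.153 for Hspa8 and Hspd1), NOD.B10 replicate 2 (0.0828 and 0.0646), BL/10 replicate 2 (0.0681 and 0.123) or BL/10 replicate 3 (0.0709 and 0.0687), and that of Hspd1 without NOD.B10 replicate 3 (0.106). With the age term Hspa8 and Hspd1 were lost as well (adjusted p = 0.221 and 0.308). Cirbp and Rbm3 had log2 fold changes of opposite sign, 0.39 and -0.44 (adjusted p = 0.233 and 0.267 from edgeR). The median of the list was -0.41, which pools genes that rise and genes that fall with temperature and so is no measure of it.

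The genes whose levels were most like those of Dbp were sought over the 6 libraries by the root mean square distance on centered log2 CPM, among tested genes with a mean of at least 5 CPM. The nearest were CT010467.1 (distance 0.11), Ms4a4a (0.13) and Gm15564 (0.18). Ms4a4a, a membrane protein of the CD20 family, had 7.89, 8.35 and 4.55 CPM in NOD.B10 and 4.45, 3.82 and 4.15 CPM in BL/10, and CT010467.1 had 303, 472 and 243 CPM in NOD.B10 and 263, 182 and 250 CPM in BL/10. Nearest to the mirror image of Dbp were Siglech (0.16), a receptor of plasmacytoid dendritic cells, Padi2 (0.16) and the T cell coreceptor gene Cd8b1 (0.17). None of the 22 other clock genes was among these 6.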

How the data were processed

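The authors sequenced RNA from the spleens of 3 NOD.B10 and 3 BL/10 female mice and deposited a table of unnormalized counts for each gene. Per the file headers, exons of the Ensembl 84 annotation (GRCm38) were counted with featureCounts version 1.5.1 at default settings, so strand was not used and reads that map to several places or genes were left out. The paper names Tophat2 as the aligner, and the submitters' processing notes name HISAT2 version 2.0.5. Symbols were taken from GENCODE M21 (same build) for 47224 of 47729 genes. Groups came from descriptions and column names. For BL/10 replicate 3 the description matches its column by library number and strain only.

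Counts were analysed in R version 4.3.3 with edgeR version 4.0.16 (filterByExpr, TMM, quasi-likelihood test, Benjamini-Hochberg adjustment over 15330 genes, threshold 0.05), with DESeq2 version 1.42.0 and limma version 3.58.1 as alternatives. Each standard error was derived from the log2 fold change and its quasi-likelihood F value. The log2 CPM values used for spread and likeness had a prior count of 2. The procedure was tested on simulated counts. The members and gene lists were chosen with earlier results of these data known. By rule, the genes named were all members, a fixed set of clock genes, listed genes past the threshold and the genes nearest to Dbp. Other listed genes that missed the threshold (such as Tsc22d3, Ddit4, Mt1, Mt2, Cirbp, Rbm3, Fos, Egr1, Nr4a1, Junb, Ier2, Egr2, Cxcr2, Usp2 and Wee1) were named after their values were seen. Levels over unshared exon bases were added after seeing the data. The 3 libraries of each strain are biological replicates per the study. Of the clock list, 1 gene is counted in its totals but not reported here.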

Additional observations from a re-analysis of the deposited data

How the results depend on the processing

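The number of genes called in the strain comparison was 2656, 943 with the labelled age as a term, 1035 at an adjusted p under 0.01, and 1269 to 4107 when each replicate was left out. The age term leaves BL/10 replicate 1 as the control of the same labelled age. DESeq2 called 21.7% of all genes, and limma-voom called 3344 of 15330. In edgeR, 3104 of 27067 genes were called with no filter beyond 1 count and 1395 of 15582 without NOD.B10 replicate 3. Of the 10 clock and output genes, 1 was called, 2 with DESeq2, with limma-voom and with no filter beyond 1 count, and 0 with the age term or at an adjusted p under 0.01 in edgeR (1 and 3 at an unadjusted p under 0.05). Without each replicate, 0 to 3 were called (0 without NOD.B10 replicate 1, NOD.B10 replicate 2 or BL/10 replicate 2, with 2 at an unadjusted p under 0.05 in each, and 3, Dbp, Per1 and Tef, without NOD.B10 replicate 3). The other clock genes gave 3 calls, 0 with the age term or at 0.01, and 0 to 4 without a replicate. The glucocorticoid list gave 1, 0 at 0.01, and 0 to 1 without a replicate. The temperature-linked list gave 2, 0 with the age term or at 0.01, and 0 to 4 without a replicate. The immediate early list gave 1, 0 with the age term or at 0.01, and 0 to 3 without a replicate. Where the age term gave 0, edgeR had 1 gene of each list at an unadjusted p under 0.05, and at 0.01 the lists had 7, 2, 4 and 5 in this order. DESeq2 called 4, 1, 2 and 1 at 0.05, where it called 21.7% of all genes. The sign of the log2 fold change turned with the age term for Per2 (0.054), Ciart (-0.060) and Arntl (0.098), without NOD.B10 replicate 1 for Per3 (-0.018), and without NOD.B10 replicate 2 or BL/10 replicate 3 for Arntl (0.068 and 0.018, from a lowest value of -0.17 without NOD.B10 replicate 3). The difference in the log2 ratio of Dbp to Arntl ran from 0.27 to 1.00, and the median SD of the members from 0.14 to 0.24, over the alternatives tried. The cause of these changes was not tested. Correlations of deviations from the strain means were 0.03, 0.17 and -0.08 for same-numbered libraries and -0.18 to 0.16 for the other pairs. With 3 libraries per strain, these values cannot tell whether same-numbered libraries were handled together. With a replicate block 1 of the 10 members was called. Depth limits Ciart, with 10 to 17 counts.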

Other observations

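Immediate early genes, which are induced within minutes by handling and dissection, were compared as a list of 11 genes. Atf3, a stress-induced transcription factor, was the gene called (17.3% of all genes were called), with 4.31, 3.19 and 3.15 CPM in NOD.B10 and 6.68, 5.77 and 7.90 CPM in BL/10. Atf3 had a log2 fold change of -0.94 with a standard error of 0.20 (edgeR adjusted p = 0.0176), and all NOD.B10 libraries were below all BL/10 libraries. The call was lost without NOD.B10 replicate 2, NOD.B10 replicate 3 or BL/10 replicate 3 (adjusted p = 0.0571, 0.0701 and 0.0549) and with the labelled age as a term (0.120). Fos, Egr1 and Nr4a1 had log2 fold changes of -0.41, -0.05 and -0.32 and missed the threshold (adjusted p = 0.164, 0.894 and 0.118 in edgeR), and 3 of the 11 fitted values were higher in NOD.B10. These 3 were Junb, Ier2 and Egr2, with log2 fold changes of 0.29, 0.29 and 0.46 (adjusted p = 0.128, 0.0872 and 0.175 in edgeR).

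Among clock-controlled genes outside the core loop, Usp2, which encodes a deubiquitinase with a strong daily rhythm in many tissues, had 3.47, 3.81 and 2.08 CPM in NOD.B10 and 1.47, 1.88 and 1.76 CPM in BL/10. The strains did not overlap, as was so for 38.0% of all tested genes. The log2 fold change of Usp2 was 0.87 (adjusted p = 0.0655 from edgeR). Wee1, a cell cycle kinase gene driven through E-boxes, had 10.7, 11.9 and 11.97 CPM in NOD.B10 and 13.3, 22.1 and 17.9 CPM in BL/10, also without overlap (log2 fold change -0.62, adjusted p = 0.0566 from edgeR). These genes were chosen after their values were seen.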
